A study of Dicentrarchus labrax with 35 samples.

Results

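A set of 200 transcripts was followed in the gonads of European sea bass (Dicentrarchus labrax). Their level was lower in juvenile testes than in undifferentiated gonads, and lower again in the testes of 3 fish of group FS. The members were chosen by their measured values in the deposited log2 matrix. A target sequence entered when the mean of the 15 testes of groups FF, SF and SS lay at least 0.5 below the mean of the 15 gonads of groups F and S, and the mean of FS1, FS2 and FS4 lay at least 1 below that of FF, SF and SS. Of 24200 probes against 11705 target sequences, 576 probes of 360 targets passed both limits. The probe with the lowest FS difference stood for its target, and the 200 targets with the lowest differences were kept. In the matrix, the FS difference of the members ran from -3.64 to -1.30 on the log2 scale (median -1.69) and the difference with age from -4.59 to -0.50 (median -1.06). The last members inside the limit had FS differences of -1.304, -1.303 and -1.301, and the first targets outside it -1.297, -1.296 and -1.295. These differences chose the members and are therefore described here without a test.

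The gonad of each fish was hybridised to its own 1-colour array, so that the 35 arrays are 35 fish. At time 2 (T2, 332 days post fertilization in the labels) all fish analysed were males, with 5 fish in each of 4 groups. FS fish had grown fast and were then fed less to slow their growth, FF fish had grown fast and stayed on abundant food, SF fish had grown slowly and were then fed more, and SS fish had grown slowly and were kept growing slowly on a reduced ration. Before the division at T1 all fish had been fed to satiety, so that the reduced ration of FS and SS began there. At time 1 (T1, 133 days post fertilization) there were 7 fish of the fast-growing group F and 8 of the slow-growing group S, taken from the opposite ends of the size distribution of a single population and still sexually undifferentiated. Each T2 group was reared in a tank of its own after the division at T1, so that tank and group cannot be told apart. FS1, FS2 and FS4, which stood apart from the other T2 testes, are called divergent FS, and the 15 testes of FF, SF and SS are called other T2. FS3 and FS5 did not enter the rule.

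In sea bass, sex is not fixed by a single master gene. It depends on many loci and on temperature, and fish that grow faster early in life more often become females. The gonad differentiates late, after the fish has reached a certain size. An undifferentiated gonad holds primordial germ cells among somatic cells and connective tissue. A juvenile testis holds spermatogonia in cysts formed by Sertoli cells, with Leydig cells, vessels and connective tissue between them. The RNA of a whole gonad is the sum over all these cells, and with such samples fewer cells of a type and less RNA per cell cannot be told apart.

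The array identifiers were not paired with gene names in the files used, and 0 of 24200 probes and 0 of 11705 targets matched the RefSeq table of 30274 genes. The functions of the members and the defining markers of testis, germ cells and other cell types are therefore not described, and the members are given by their values. Of the 200 targets, 86 (43.0%) were contigs, sequences assembled from several cDNA reads, against 28.2% of all targets. The other 114 were single reads, from each of the 14 read series on the array (1 to 15 members each). On this array 2.60% of contigs and 1.36% of single reads were members.

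Levels below are log2 intensities from the scanner output after background correction and quantile normalization of all 35 arrays, and differences are on the log2 scale, where 1 is 2-fold. The median level over the 200 members was 9.53 on FS1, 9.10 on FS2 and 9.15 on FS4. It was 11.03 on FS3 and 11.49 on FS5. On the other T2 arrays it lay between 10.50 (SS1) and 11.50 (SF2), and on the T1 arrays between 11.69 (F7) and 12.60 (F1). These ranges did not overlap: every divergent FS array lay below every other T2 array, and every T2 array lay below every T1 array. Apart from FS3 and FS5, all these arrays entered the rule, so that this separation was largely set by the choice of members. The mean of these array medians was 9.26 ± 0.24 in divergent FS (SD, n = 3), 11.03 ± 0.32 in other T2 (SD, n = 15) and 12.24 ± 0.31 at T1 (SD, n = 15). The median over all probes was 8.43 to 8.49 on every array, as quantile normalization makes it.

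**Figure D1:**
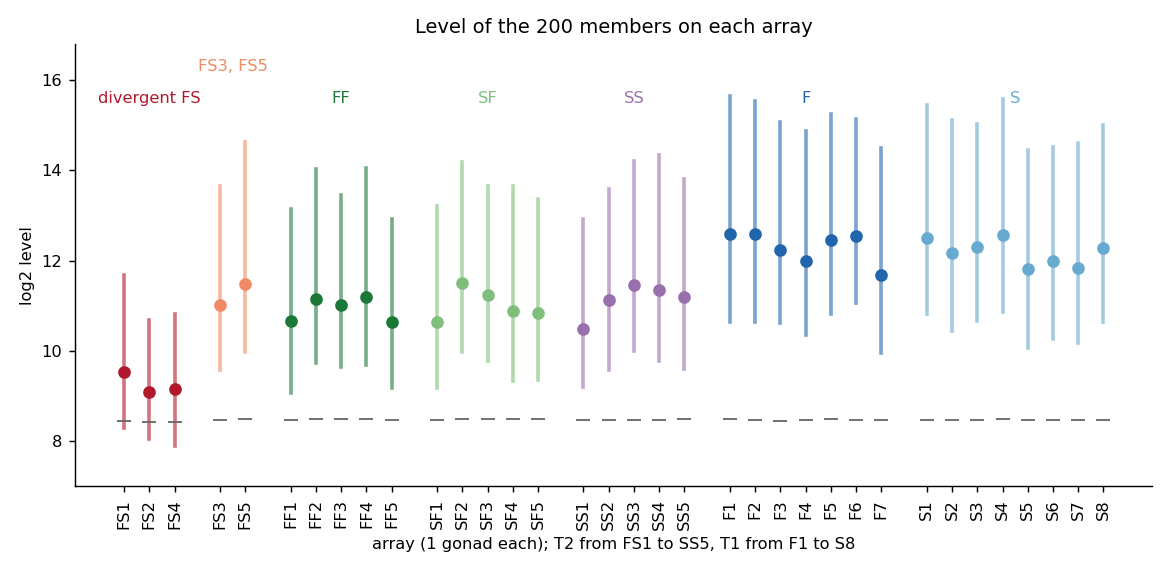
Level of the 200 members on each of the 35 arrays (y axis, log2 intensity); points are the median over members, bars run from the 10th to the 90th percentile and grey dashes mark the median over all probes. FS1, FS2 and FS4 lie between 9.10 and 9.53, FS3 and FS5 at 11.03 and 11.49 among the other T2 testes, and the T1 gonads between 11.69 and 12.60.

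The members were bright probes. Their mean level at T1 had a median of 12.22 (range 9.87 to 17.14), against 8.49 over all probes, and all 200 lay above the median probe. A start at a high level is in part set by the rule, since a probe must be bright at T1 to fall by both steps and stay above background. In divergent FS the mean level of the members had a median of 9.30, against 8.43 over all probes, and 164 of the 200 were still above the median probe. The scanner software called 193 members well above background on all 3 divergent FS arrays, 200 on all 15 other T2 arrays and 198 on all 15 T1 arrays. Over all probes these shares were 69.8, 64.5 and 40.3%. The fall therefore took place in the measurable range for nearly all members. For 1 member, which was above background on none of the 3 divergent FS arrays, only a bound can be given: it was at least 3.57-fold lower there (measured mean 7.22 in divergent FS and 9.05 in other T2).

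The median difference of the members between divergent FS and other T2 was -1.71, against -0.04 over all probes. The difference was -1.47 on FS1, -1.86 on FS2 and -1.84 on FS4, and all 200 members were below the mean of the other T2 arrays on each of these 3 arrays. In 186 members all 3 arrays were at least 2-fold below it. Over all probes, 53.5 to 54.9% were below it on each single array, and 9.34 to 11.7% at least 2-fold below. The rule used the mean of these 3 arrays, so the counts of members were largely set by it. Over the members, FS1 was the mildest of the 3 fish. It held the lowest value in 6 members, against 80 for FS2 and 114 for FS4. The spread between these 3 fish (highest minus lowest) had a median of 0.55 over the members and ran from 0.02 to 2.80, against a median of 0.29 over all probes.

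Among the 192 members with a value on every array, FS1, FS2 and FS4 were all below the lowest of the 15 other T2 arrays in 155. The same held for 16.9% of all probes, and 16.6% of all probes were above the highest, so that the divergent fish stood apart in many probes outside the members. With FS1 left out the count was 180 (20.4% of all probes), and with FS2 or FS4 left out it was 155. All 192 lay below both FS3 and FS5 in the 3 divergent fish, as did 33.8% of all probes. The rule used these arrays, and nothing about the members is drawn from the shares.

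**Figure D2:**
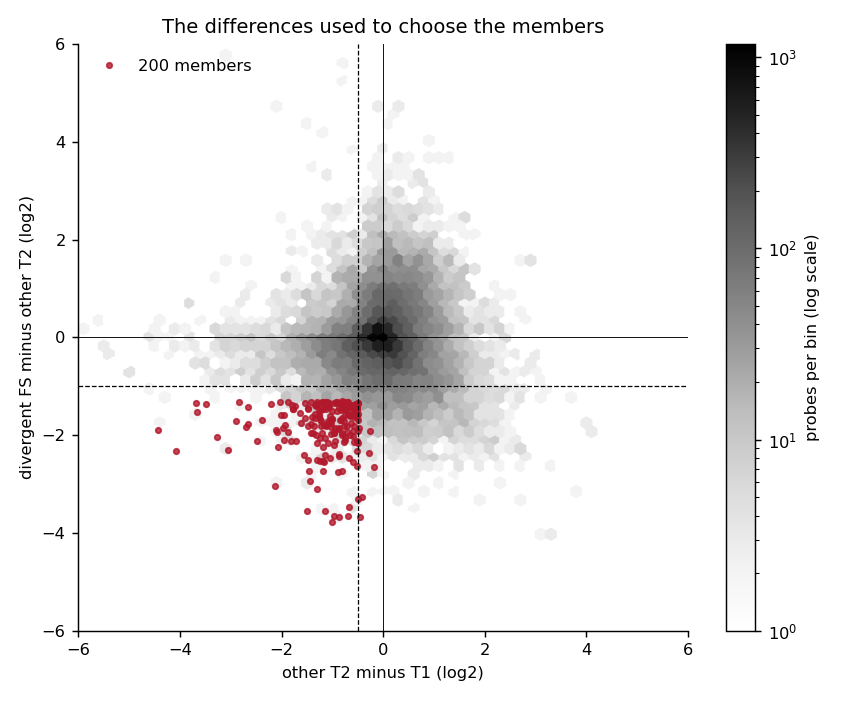
Difference with age (x axis, other T2 minus T1, log2) and difference of divergent FS from other T2 (y axis, log2) for all 24200 probes (grey, log scale) and the 200 members (red), from scanner values. Dashed lines mark the limits of -0.5 and -1, which were applied to the deposited matrix, so that some members lie just outside the left limit here.

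Over the array as a whole, probes that fell with age were found on both sides in divergent FS. In the matrix, 4199 probes were lower by at least 0.5 in other T2 than at T1. Of these, 576 (13.7%) were lower by at least 1 in divergent FS, 354 (8.43%) were higher by at least 1 and 2216 (52.8%) lay within 0.5. Of the 4880 probes that were higher by at least 0.5 with age, 21.0% were lower by at least 1 in divergent FS and 15.2% were higher. Over all 24200 probes, 2505 were lower and 2394 (9.89%) were higher by at least 1. The members are thus a small portion of the transcripts that fell with age, and larger shares of the transcripts that had risen moved in divergent FS. Both differences share the mean of other T2, and no test was run.

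The difference between other T2 and T1 had a median of -1.02 over the members (range -4.44 to -0.19), against 0.01 over all probes. This size rests on normalizing both ages together: with T1 and T2 normalized separately the median was -0.049, where all probes shifted by 0.66 (-0.71 relative to that shift). In the joint values 104 members were lower by at least 2-fold. Between the 3 divergent fish and T1 the median difference was -2.85. In 168 members the step between divergent FS and other T2 was larger than the step with age. The rule asked for a larger FS step and ranked the targets by it, so this count was largely set by the rule. The median FS difference was alike across sizes of the fall with age. By keeping only the lowest FS differences, the rule held these medians close to its limit. Both differences also contain the mean of other T2, and nothing about the members is drawn from this likeness. The 21 members with a fall of at least 2 had a median FS difference of -1.78, the 83 with a fall of 1 to 2 one of -1.72, and the 96 with a smaller fall one of -1.67. Other T2 arrays were all below the lowest T1 array in 20 of 192 members, against 3.23% of all probes, whereas divergent FS arrays were in 185 (17.2% of all probes). Within the first scan day the median difference was -0.70 between 14 T2 and 4 S arrays (0.02 over all probes). Within the second it was -0.96 between FF2 and 11 T1 arrays (-0.01 over all probes), with 1 T2 array. The rule used these arrays, so the direction within each day was largely set by it, and the part of the scan day was not tested.

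The fall with age was found in each line of fish. The median difference was -1.15 between FF and F, -1.03 between SF and S, and -0.81 between SS and S. The members lay lower at T2 in 195, 200 and 194 cases in these pairs, and 189 were lower in all of them. By at least 1.5-fold, 116 members were lower in all 3 pairs. All F arrays and FF2 were scanned on the second day, and the other FF arrays on the first. The S arrays of the second day lay above those of the first by a median of 0.58 over the members. The part of the scan day in these falls was not tested. All T2 fish were males, while the T1 gonads could include future females, so age and sex composition cannot be told apart. Since the rule used the means of these groups together, the directions were largely fixed by it. What it did not use are the differences between the lines, which are tested below.

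The 2 FS fish that the rule left out differed from divergent FS in all of these transcripts. On FS3 the median difference of the members from other T2 was 0.04 (0.01 over all probes). The members were balanced around the other T2 mean, with 93 below and the others above it, and 14 lower and 14 higher by at least 1.5-fold. FS3 lay below the lowest other T2 array in 2 of 192 members (3.37% of all probes) and above the highest in 4 (4.31%). FS3 thus stood inside the range of the fish of other groups, as it did in its median of 11.03, with 7 of the 15 other T2 arrays below it. FS3 shared its slide with FS1, FS2 and FS4, and on that slide the divergent fish were lower than FS3 in all 200 members, with a median difference of -1.78 (-0.01 over all probes). This gap rests in part on the rule, which used the divergent arrays, and the part of the slide was not tested.

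FS5 lay on the upper side. Its median difference from other T2 was 0.44 (-0.01 over all probes), with 156 members above the other T2 mean and 44 below. By at least 1.5-fold, 80 members were higher and 6 lower. By at least 2-fold, 35 members (17.5%) were higher, against 1.08% of all probes. Such counts were not particular to FS5. Against the rest of other T2 they were 35 on SS3, 34 on SS4, 30 on FF4 and 25 on SF2. The shares of all probes there were 1.53, 1.39, 2.10 and 1.02%. On the remaining other T2 arrays the counts ran from 0 (SF5) to 13 (FF3). FS5 exceeded the highest of the 15 other T2 arrays in 33 of 192 members, against 5.20% of all probes, and was below the lowest in 3 (4.57%). Its median level of 11.49 was above 14 of the 15 other T2 arrays and below all T1 arrays. Its median difference from T1 was -0.57, against -1.03 for FS3, with 122 members between the means of other T2 and T1 and 34 at or above the mean of T1. The 3 SF arrays on the slide of FS5 gave a like value, with a median difference of 0.38 and 161 members higher in FS5. The excess of FS5 was larger in members that had fallen more with age, with medians of 0.79, 0.46 and 0.39 over the 21, 83 and 96 members above. Both the excess and the fall contain the mean of other T2, with opposite signs. A member low in other T2 shows both as larger, so this order is in part set by the arithmetic. These values come from 1 fish, and since the mean of other T2 was part of the rule they are a description.

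**Figure D3:**
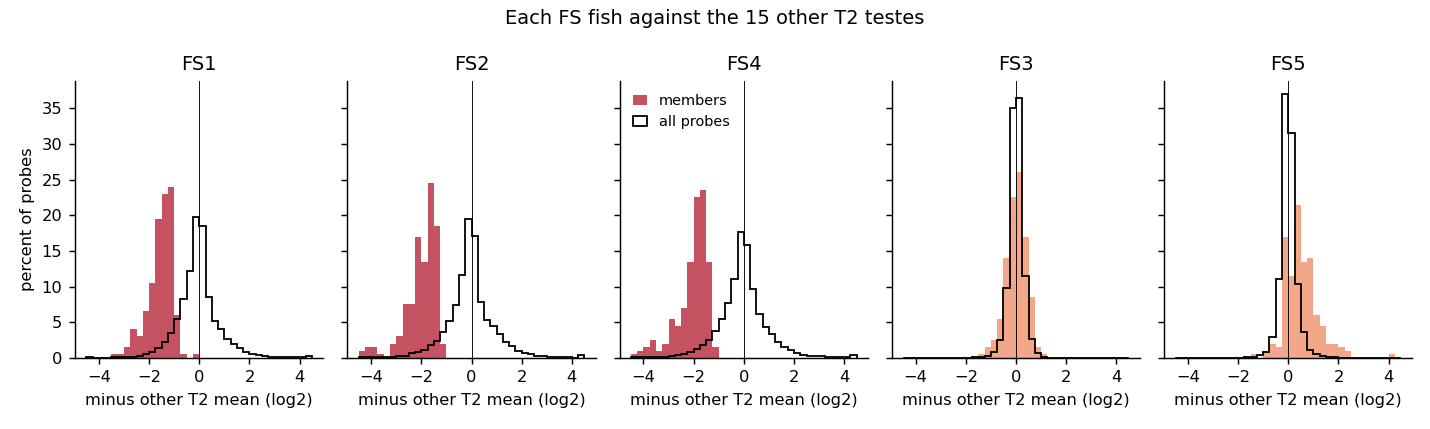
Difference of each FS fish from the mean of the 15 other T2 testes (x axis, log2) as the percent of probes in bins of 0.25 (y axis), for the 200 members (filled) and all 24200 probes (line). The members are shifted down on FS1, FS2 and FS4 (medians -1.47, -1.86 and -1.84), lie around 0 on FS3 (0.04) and are shifted up on FS5 (0.44).

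The members also varied between the other T2 testes, in the same way over many members at a time. Each array was set against the mean of the other 14. The median difference of the members was -0.58 on SS1, -0.47 on SF1, -0.38 on FF1 and -0.33 on FF5, with 169, 166, 159 and 148 of the 200 members below. At the other end it was 0.49 on SS3, 0.43 on SF2 and 0.24 on FF4, with 172, 158 and 126 members above. Each of the 3 groups held fish at both ends, so that low and high testes were found in every feeding group. The lowest of these arrays, SS1 with a median level of 10.50, remained above FS1 with 9.53. Over all probes, the median difference of these 7 arrays from the rest was between -0.04 and 0.00. With FF1, FF5, SF1 and SS1 left out together, the members of divergent FS below all remaining other T2 arrays were 171 of 192 (19.9% of all probes).

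The spread between fish was wide in these transcripts. The median SD of a member was 0.29 in divergent FS, 0.52 in other T2 and 0.64 at T1, against 0.15, 0.25 and 0.33 over all probes. Over the 5 fish of FS together it was 1.14, against 0.30. The rule asked for low values on FS1, FS2 and FS4, so this wide spread was largely set by the choice of members.

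**Figure D4:**
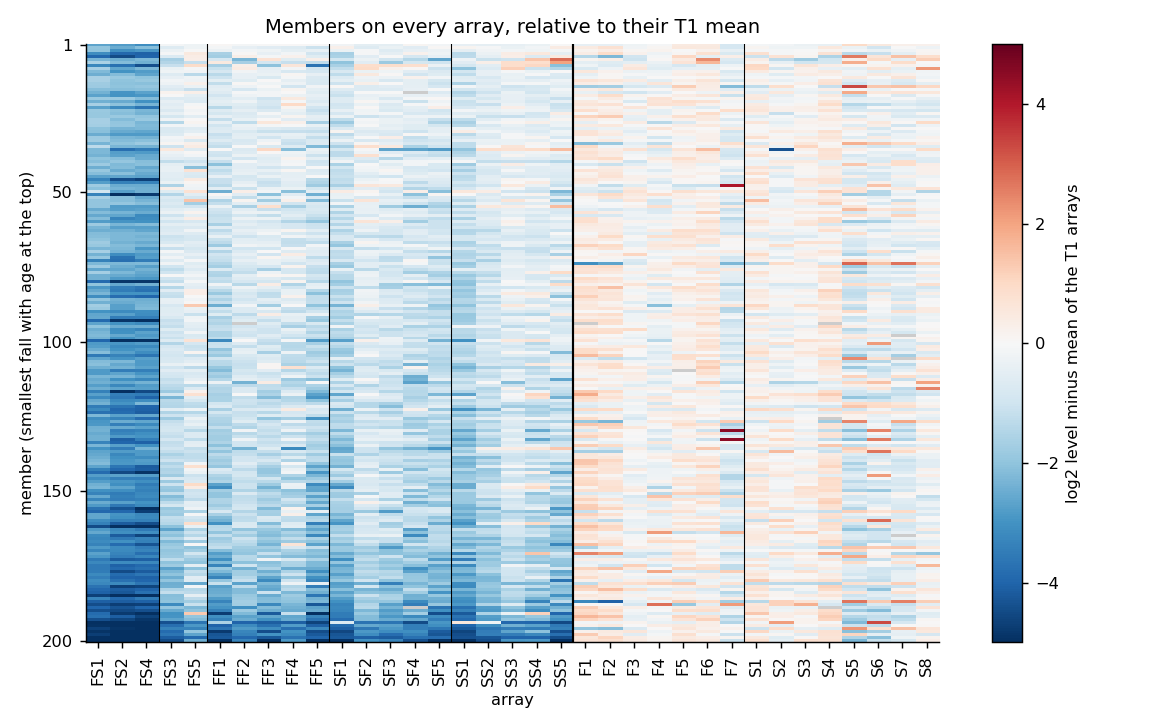
The 200 members (rows, the smallest fall with age at the top) on 35 arrays (columns), as log2 level minus the mean of the 15 T1 arrays; blue is lower and red higher than at T1. The 3 columns of divergent FS are blue in all rows, the other T2 columns are blue in a graded way, with SS1, SF1, FF1 and FF5 the deepest, and single members depart from their group on single T1 arrays such as F7.

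Differences between groups of the same age were not used by the rule, and these were tested probe by probe with limma over all 24200 probes. Calls required a change of 1.5-fold or more in either direction and p under 0.01 after Benjamini-Hochberg adjustment. No member was called in any of the 5 comparisons. The members' median SE was 0.28 to 0.30 in the comparisons of 2 groups, against 0.14 to 0.16 over all probes. By at least 1.5-fold, 41 members differed in F vs. S (8.20% of all probes) and 45 in FF vs. SS (6.98%). The counts were 28 in SF vs. SS (5.17%) and 19 in SF vs. FF (1.89%). Uncalled differences reached -2.05 in F vs. S, -2.08 in FF vs. SS and -2.42 in SF vs. SS. The lack of calls therefore does not show that the members were alike between groups.

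Between F and S, sampled before sex differentiation can be seen by histology, 0 members were called (0% of all probes). The paper places its first molecular signs earlier than this sampling. At an unadjusted p under 0.05, limma gave 16 members higher and 16 lower in F, or 32 of 200, against 20.4% of all probes. The smallest adjusted p of a member was 0.0489. The median difference F minus S was 0.23 (0.03 over all probes), and 131 members (65.5%) were higher in F, against 54.2% of all probes. With 1 array left out the median lay between 0.13 (without S5) and 0.29 (without S4). All F arrays were scanned on the second day together with 4 of the 8 S arrays. Against those 4, the median difference was -0.09 with 71 members higher in F, and against those of the first day 0.52 with 141 higher. The S arrays of the second day lay above those of the first by 0.58. The direction therefore did not hold within the scan day, and on the slide that held F5, F6 and F7 with S1 the difference was -0.24. F arrays were all above the highest S array in 1 of 192 members (0.258% of all probes) and all below the lowest in 0 (0.15%).

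Between FF and SS, the fish with sustained fast and slow growth, 0 members were called (0.0992% of all probes). At an unadjusted p under 0.05, limma gave 10 members higher and 17 lower in FF, against 11.1 and 7.75% of all probes. The smallest adjusted p was 0.0368, the median difference -0.14 (0.01 over all probes), and 127 members were lower in FF. With 1 array left out the median lay between -0.27 (without SS1) and -0.04 (without SS3), and without FF2, which was scanned on the other day, it was -0.19. The spike-in controls had a relative level of -2.58 to 1.25 on the FF arrays and 3.08 to 5.56 on the SS arrays, and their part in this difference was not tested. FF arrays were all below the lowest SS array in 4 of 192 members (2.84% of all probes) and all above the highest in 0 (2.75%). No slide held both groups, so that slide and group cannot be told apart.

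Between SF and SS, growth acceleration against sustained slow growth, 0 members were called (0% of all probes). At an unadjusted p under 0.05, limma gave 5 members higher and 12 lower in SF, or 17 of 200, against 9.64, 8.13 and 17.8% of all probes, with a smallest adjusted p of 0.0911. The median difference was -0.10 (0.01 over all probes), and between -0.19 and 0.03 with 1 array left out. The spike-in level was -1.75 to -0.42 on the SF arrays and 3.08 to 5.56 on the SS arrays, and its part was not tested here either. On the slide shared by both groups (SF4 and SF5, SS1 and SS2) the median difference of the members was 0.11, so the direction turned within the slide. This rests on 2 arrays of each group, and SS1 had the lowest member median of the other T2 arrays (10.50). SF arrays were all below the lowest SS array in 1 of 192 members (2.19% of all probes) and all above the highest in 0 (1.89%).

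Between SF and FF, which were both on abundant food after different starts, 0 members were called (0% of all probes). At an unadjusted p under 0.05, limma gave 2 members higher and 4 lower in SF, or 6 of 200, against 3.06, 2.74 and 5.80% of all probes. The smallest adjusted p was 0.799 and the median difference 0.03 (0.00 over all probes). SF arrays lay all above the highest FF array in 0 of 192 members (0.474% of all probes) and all below the lowest in 0 (0.545%).

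Whether the change with age differed between the sustained lines was tested as the contrast (FF minus SS) minus (F minus S). Of the members, 0 were called (0.0702% of all probes), with a smallest adjusted p of 0.0968. At an unadjusted p under 0.05, limma gave 3 members higher and 23 lower, against 8.15 and 7.53% of all probes. The median was -0.29 (-0.02 over all probes), with 137 members below 0, a larger fall in the fast line. With the S arrays of the second scan day alone the median was -0.07 with 112 members below 0, so that the size of this value moved with the scan day.

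The other probes of the members' targets gave a further reading of the same RNA on the same arrays. Of the 200 targets, 109 had further probes, 218 in all. They were lower in divergent FS than in other T2 in 216 of 218 cases (median -1.53), by at least 1 in 195, against 54.0 and 10.5% of all probes. They were lower in other T2 than at T1 in 212 (median -1.09), against 49.5% of all probes. In scanner values 165 of them passed both limits themselves, so that these directions were largely set by the choice of targets. In 91 targets all further probes were lower by at least 1 in divergent FS, and in 5 targets none was. The median of -1.53 stood beside -1.71 for the members, which the rule took as the lowest probe of each target. Among the 209 further probes that were well above background on all T1 arrays, the median difference was 0.38 on FS5 and -0.04 on FS3, close to the values of the members. Of the 89 members measured by a single spot, 19 to 25 (21.3 to 28.1%) lay in each of 4 equal bands of array rows, against 24.0 to 25.8% of all single-spot probes. The columns and the positions of the other members were not examined.

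The member with the lowest FS difference was probe CUST_4192_PI416070213 against contig SeabassC-CL261Contig1. Its level was 11.75 on FS1, 10.69 on FS2 and 10.37 on FS4, against 12.51 to 16.41 with a median of 15.44 on the other T2 arrays. The ranges did not overlap, as in 16.9% of all probes. The mean was 10.94 ± 0.73 in divergent FS (SD, n = 3) and 14.71 ± 1.40 in other T2 (SD, n = 15), a difference of -3.77. Both the gap and its size were largely set by the choice of the lowest FS difference. FS3 had 15.06 and FS5 16.46, above every other T2 array. At T1 the level was 14.32 to 16.55 with a median of 15.70. Low values were found in single fish of each other T2 group, with 12.51 on FF1, 12.92 on FF5, 13.02 on SF1, 13.34 on SF5 and 12.69 on SS1. The same arrays were the low ones over the members as a whole. The further probes of this contig gave -3.54 and -3.42. In the tests of groups of the same age it was not called, with differences of -0.15 ± 0.32 (SE) between F and S and -0.99 ± 0.84 (SE) between FF and SS (limma, adjusted p = 0.808 and 0.558). In the deposited matrix its levels on SS2, SS3, SS4 and SS5 were 14.99, 15.53, 15.67 and 14.80, against 15.56, 16.24, 16.41 and 15.45 here. The difference between FF and SS was smaller in the matrix, so its size depended on the processing.

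The next was probe CUST_9303_PI416070213 against the single read cDN22P0006P01.F.ab1. It had 9.71 on FS1, 9.18 on FS2 and 9.63 on FS4, against 11.91 to 14.08 with a median of 13.18 on the other T2 arrays, again with no overlap. The mean was 9.50 ± 0.28 in divergent FS (SD, n = 3) and 13.18 ± 0.69 in other T2 (SD, n = 15), a difference of -3.67. FS3 had 12.95, near the middle of other T2, and FS5 lay near the top, 0.83 above the other T2 mean. At T1 the level was 11.41 to 16.22 with a median of 13.77, which overlapped with other T2 over its whole range. The rule picked this transcript by its low values on FS1, FS2 and FS4. Its gap from the other testes was thus largely set by the choice, and 16.9% of all probes had such a gap. Its difference with age was -0.47, but this was not alike in the lines of fish. The mean was 13.10 in F and 13.26 in FF, against 14.12 in S, 12.96 in SF and 13.31 in SS. Within S, the arrays of the first scan day had 14.27 to 16.22 and those of the second 12.08 to 14.38. The further probes gave -3.48 and -3.18. F had 13.10 ± 1.10 (SD, n = 7) and S 14.12 ± 1.32 (SD, n = 8), which was not called (limma, adjusted p = 0.326).

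A member with another pattern was probe CUST_3800_PI416070213 against contig SeabassC-CL2340Contig1, picked after its values were seen because it had the largest excess in FS5. Its level was 10.71 on FS1, 9.77 on FS2 and 9.58 on FS4, with 11.57 on FS3 and 15.86 on FS5. On the other T2 arrays it ran from 9.32 to 15.70 with a median of 11.97. Divergent FS overlapped with each of the other T2 groups, whose lowest values were 9.32 in FF, 10.10 in SF and 10.34 in SS. The T1 gonads lay between 13.63 and 15.87. Among the testes, FS5 (15.86), SS4 (15.70), SS3 (14.27) and FF4 (13.40) had the highest levels, near or within the range of the undifferentiated gonads, and FF5 (9.32) and FF1 (9.80) were as low as FS2 and FS4. In SS the mean was 12.78 ± 2.33 (SD, n = 5), and the difference between FF and SS was not called (-1.74 ± 1.15 SE, limma, adjusted p = 0.448).

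**Figure D5:**
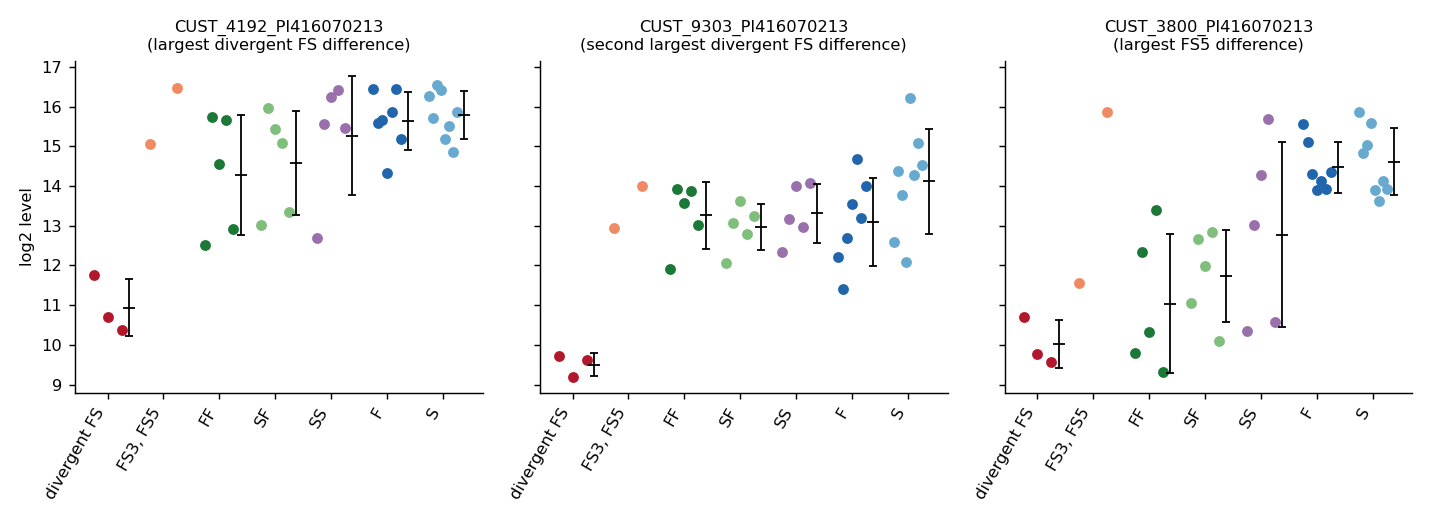
Log2 level (y axis) of 3 members in each fish by group; points are fish and black bars the mean ± SD of groups with at least 3 fish. In the first and second panels FS1, FS2 and FS4 lie below all other testes. In the third they overlap with testes of FF, SF and SS, while FS5, SS4 and SS3 lie near the T1 gonads.

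In signal, share of spots well above background and spike-in level the divergent arrays mostly lay among the other T2 arrays. In flagged spots, which were left out of the values, FS1 and FS2 stood apart. These spots numbered 213 on FS1 and 180 on FS2, more than on any other array, and 15 to 122 on the other T2 arrays. FS4 had 114, FS3 on the same slide 133, and FS5 25. The median signal was 178 on FS1, the lowest at T2, 250 on FS2 and 392.5 on FS4, against 294 on FS3, 343 on FS5 and 202 to 752 on the other T2 arrays, with backgrounds of 16 to 23 over all arrays. Spots well above background were 71.8% on FS1, 73.4% on FS2 and 76.4% on FS4, against 78.5% on FS3, 85.3% on FS5 and 67.2 to 87.8% on the other T2 arrays. The level of the spike-in controls, RNA added before labelling, relative to the 75th percentile of the array was 0.09 on FS1, -1.60 on FS2 and -1.75 on FS4, against 0.50 on FS3 and -0.34 on FS5. It was -2.58 to 1.25 on the FF arrays, -1.75 to -0.42 on the SF arrays and 3.08 to 5.56 on the SS arrays, so that SS stood apart from every other T2 array in this measure and divergent FS did not. The part of these measures in the members' levels was not tested. FS1, FS2 and FS4 were scanned on the first day and shared a slide with FS3, whose median over the members was 11.03. The members were chosen by low values on FS1, FS2 and FS4, and the part of slide or scan day was not tested. The arrays were numbered by the sample titles.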

How the data were processed

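The authors hybridised the RNA of each gonad to a custom Agilent array and deposited the scanner output (Feature Extraction 10.7.3.1 in the file headers), in which the intensity of each spot and its local background is linear and not normalized. They also deposited a matrix of processed log2 values (normexp background correction and quantile normalization in the study's methods), which was used for the rule of choice. All other values were computed from the scanner output. The median spot signal was corrected with normexp (offset 50), the 43803 sea bass spots of the 35 arrays were quantile normalized, and each probe took the median of its spots without the 2763 flagged ones. Saturation was found in 0 spots. Of the matrix values, 98.3% lay within 0.1 of these. All 24200 probes met the reliability rule (foreground at least 2 times background), and 195 single values were missing.

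Groups came from the sample labels. Pairs of groups were fitted in limma 3.58.1 under R 4.3.3 (lmFit, eBayes), and the steps were tested on simulated data. The members and lists were chosen with earlier results of these data known. The rule for names gives, with no gene names, the 2 members with the lowest FS difference. The array design and slides were read from the file headers: FS1 to FS4 lay on 1 slide, FS5 on another, and only some slides held more than 1 group. The alternatives were other background corrections, normalizations, filters, spot summaries, fits with slide, scan day or replicate number as a block, array weights, a looser threshold, other readings of the rule and each array left out in turn. The number of arrays limits the precision, since arrays have no depth of counting. Fish are separate animals, but those of a group shared a tank. Figures were drawn with matplotlib 3.10.9 (Python 3.11.15).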

Additional observations from a re-analysis of the deposited data

Results flagged for a closer look

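In 18 groups of values (the named members in groups of 4 to 10 fish), 1 fish lay far from the others of its group. For CUST_4192_PI416070213 the level on SS1 was 12.69, against 15.45 on the next SS array and 16.41 on the highest, a gap of 0.742 of the range of the group. Chance sets apart about 1 in 20 groups. FF1, FF5, SF1 and SF5 had values of the same size in their groups.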

How the results depend on the processing

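Of the 88 counts of called members under other settings 80 stayed at 0, and of 70 counts with an array left out 69 did. For F vs. S the count was 1 (higher in F) in the fit of all 6 groups, 3 (2 higher, 1 lower) in the fit of the 5 groups without FS and 1 at a fold change of 1.2 and adjusted p of 0.05. For FF vs. SS it was 1 with the authors' matrix, 1 with control spots kept in the normalization (both higher in FF) and 1 at the looser threshold (lower). For SF vs. SS it was 1 (lower in SF) with array weights, and between 0 and 1 with an array left out, the 1 being without SS1. For (FF minus SS) minus (F minus S) it was 2 (lower) with array weights. The cause was not tested. Slide as a fixed block could not be fitted where no slide held both groups. The replicate numbers only share a label (same-numbered fish correlated from -0.24 to 0.78 in their deviations, and 6 of 22 pairs best with their own number), and with the number as a block the counts stayed at 0.

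The median of divergent FS minus other T2 was -2.31 with the processed signal at the 75th percentile, where all probes shifted by -0.41 (-1.90 relative to that shift), and -1.84 to -1.64 with an array left out. The median of other T2 minus T1 was -1.45 with the same signal and -0.049 when T1 and T2 were normalized separately, where all probes shifted by 0.66 (-0.71 relative to that shift). With an array left out, the medians near 0 crossed it: FS3 minus other T2 lay between -0.0031 and 0.08, SF minus SS between -0.19 and 0.03, and SF minus FF between -0.06 and 0.15. F minus S lay between 0.13 and 0.29 and FF minus SS between -0.27 and -0.04. FF minus SS moved from -0.14 to -0.07 with the authors' matrix and to -0.08 with control spots kept in the normalization. SF minus SS moved from -0.10 to -0.02 under both of these settings. Between SF and SS the median relative to all probes turned to 0.04 with the 75th percentile. The rule on scanner values kept 191 of the 200 targets, and on the median of a target's probes 176. Dim levels at T1 limit what can be measured there, and 198 of the 200 members were well above background on all T1 arrays.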

Other observations

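The 160 targets that passed both limits but fell outside the 200 behaved like weaker members. Their median level at T1 was 11.23, against 12.22 for the members, their fall with age was of the same size (median difference -1.05, against -1.02), and their FS difference was -1.16 by the rule's own limit. On FS5 they were higher than other T2 by a median of 0.35, in 138 of 160, and on FS3 the median was 0.03. F minus S had a median of 0.19 and FF minus SS of -0.13.

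The 35 members that were at least 2-fold higher in FS5 also differed between the other T2 testes, as a list chosen after its values were seen and given without a test. Against the rest of other T2 their median was 1.06 on SS3, 0.91 on SS4, 0.86 on FF4 and 0.82 on SF2, and -1.16 on FF5, -0.94 on SS1, -0.71 on SF1 and -0.64 on FF1. On FS3 it was -0.01.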
